A study of Sus scrofa with 36 samples.

Results

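The genes described are the 10 listed members of a choroid plexus set, TTR, KL, FOLR1, CLIC6, AQP1, OTX2, KCNJ13, SLC4A5, ENPP2 and PRLR, among the 31907 Ensembl pig gene identifiers counted in cerebellar RNA. They were chosen by symbol, with earlier results of these data known. TTR was singled out because its own counts spread widely between piglets, so that spread is given as a description and supports nothing. An identifier in the counts was found for 8 of the 10, and KL and FOLR1 were not analysed here. All 8 measured members passed the filter on low counts, which left 15356 genes.

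Cerebellum was taken from 36 term-born pigs (Danish landrace, Yorkshire and Duroc cross) that were 3 days old at the start and were then fed formula for 3 weeks, whose fat was of plant origin (VEG) or was taken from cow's milk (MILK). Birth weight was normal (NBW) or low with growth restriction in the womb (IUGR), and each of the 4 combinations of diet and weight (VEG-NBW and MILK-NBW, VEG-IUGR and MILK-IUGR) held 9 piglets. Each piglet gave 1 library. The study left out 1 VEG-NBW, 1 VEG-IUGR and 1 MILK-NBW library for low RNA integrity without naming them. These were matched here to piglets 202, 210 and 213, whose share of read pairs without a gene was 31.5 to 64.3% against 26.7 to 30.5% in the other 33 libraries. The 33 libraries came from 9 MILK-IUGR piglets and from 8 piglets in each of the other groups, 16 females and 17 males, with 15516541 to 23027502 read pairs on genes each. Granule neuron genes summed to 4195 to 7008 CPM and Purkinje cell genes to 2445 to 4953 CPM over the 33 libraries, so the markers of cerebellum were present in all. Levels are given as counts scaled to the total of read pairs on genes (CPM).

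The choroid plexus is a secretory epithelium in the brain ventricles, and one of its parts lies in the fourth ventricle, against the cerebellum. Its cells make cerebrospinal fluid by moving ions and water, and they are the main site of TTR synthesis in the brain. Some genes used as its markers are also made by other cells of the cerebellum, so a sample of cerebellum can hold their RNA without holding plexus.

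TTR (ENSSSCG00000023686; Sscrofa11.1 chromosome 6, 115496338 to 115503974 in RefSeq) encodes transthyretin, the carrier of thyroxine and of retinol-binding protein in cerebrospinal fluid. Its level ran from 1.16 CPM (23 counts) in piglet 212, a MILK-NBW female, to 1538 CPM (25022 counts) in piglet 231, a MILK-IUGR male, a 1321-fold range, with a median of 16.5 CPM over the 33 piglets. In VEG-NBW the lowest, median and highest values were 2.33, 14.4 and 181 CPM. In VEG-IUGR they were 3.76, 13.4 and 271 CPM. These ranges of the VEG groups overlapped, and their medians differed by less than the spread within either group. In MILK-NBW the values were 1.16, 18.9 and 34.3 CPM, and in MILK-IUGR 2.62, 18.7 and 1538 CPM. The range shared by all 4 groups was 3.76 to 34.3 CPM, and all 4 medians lay in it. The highest piglets were 231, 211 (VEG-IUGR, 271 CPM), 228 (VEG-NBW, 181 CPM) and 200 (VEG-NBW, 147 CPM), and the next was piglet 232 (MILK-IUGR) at 58.8 CPM. Piglet 231 alone lay above the widest gap between neighbouring piglets, 2.46 on the log2 CPM scale.

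**Figure D1:**
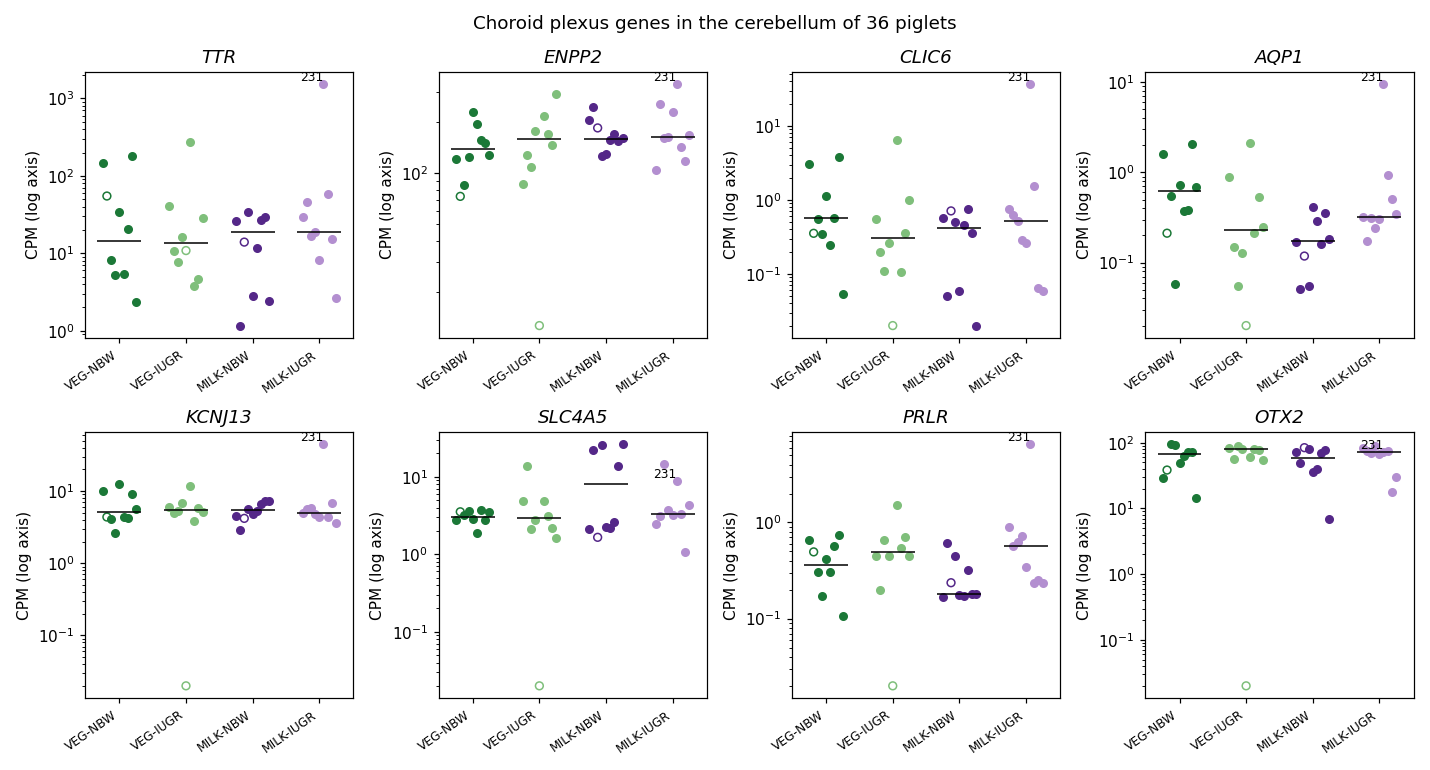
Level of the 8 measured genes in each piglet, in CPM on log axes, by group. Filled points are the 33 libraries, open points the 3 libraries left out, horizontal bars the medians of the 33, and values of 0 are drawn at 0.02. TTR, CLIC6, AQP1, KCNJ13, PRLR and ENPP2 were highest in piglet 231, and the groups overlapped for all 8 genes.

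Which genes follow TTR from piglet to piglet was tested for the other 15355 genes with edgeR's quasi-likelihood test, with the log2 CPM of TTR as a covariate beside the 4 groups and sex. The slope is the log2 change of a gene per doubling of TTR, and all adjusted p-values are by Benjamini-Hochberg over all genes tested. Of the 7 other measured members, 4 rose with TTR, namely CLIC6, AQP1, KCNJ13 and PRLR, and OTX2, ENPP2 and SLC4A5 did not pass. Over all genes 10 rose (0.0651%) and 0 fell, where 941 (6.13%) had an unadjusted p-value under 0.05 and DESeq2 called 1 lower. In bulk RNA, fewer cells of a type and less RNA per cell cannot be told apart, nor more cells from more RNA per cell. The piglets are separate animals, but litter mates cannot be told apart.

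CLIC6 (ENSSSCG00000028112; chromosome 13, 198250702 to 198303830), a chloride intracellular channel protein, followed TTR most closely. Its level was 0 CPM in piglet 234, 0.462 CPM at the median and 36.8 CPM in piglet 231, with 6.49 CPM in piglet 211 and 3.84 CPM in piglet 228. The slope was 0.92 (SE 0.045, edgeR adjusted p = 4.98e-16), so CLIC6 rose almost in proportion to TTR. Of all 15355 genes CLIC6 had the highest rank correlation with TTR, with a Spearman rho of 0.90 and a Pearson r of 0.93 over the 33 piglets (both permutation p = 1e-05, the smallest that 100000 draws give). Without the 2 piglets farthest from the median of TTR, 231 and 211, r was 0.89 and rho 0.88. Spearman's rho was 0.98 in the 16 females and 0.80 in the 17 males (permutation p = 1e-05 and 0.00022). In the 4 piglets with most TTR, the CLIC6 counts per 1000 TTR counts were 23.9 in piglet 231 (exact 95% interval 22.0 to 25.96), 23.96 in piglet 211 (20.1 to 28.3), 21.2 in piglet 228 (16.6 to 26.8) and 20.7 in piglet 200 (15.5 to 27.0). These intervals overlap one another and cover counting error only. Over all 33 piglets the ratio ran from 0 in piglet 234 (0 CLIC6 and 40 TTR counts, upper limit 96.6) to 75.9 in piglet 223 (6 and 79 counts, 27.1 to 173). Piglet 205 had 68.2 (9 and 132 counts, 30.5 to 133), above the intervals of the piglets with most TTR, and piglet 233 had 4.15 (1 and 241 counts, 0.105 to 23.3).

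AQP1 (ENSSSCG00000033190; chromosome 18, 42063482 to 42076741), the water channel of the epithelium's fluid-facing membrane, had few counts outside the same 4 piglets. Its level was 0.0506 CPM at the lowest, 0.318 CPM at the median and 9.59 CPM (156 counts) in piglet 231, with 2.12, 2.05 and 1.61 CPM in piglets 211, 228 and 200. All other piglets were at 0.0506 to 0.933 CPM. The slope was 0.52 (SE 0.067, edgeR adjusted p = 1.74e-05), and rho was 0.43 (permutation p = 0.0137) with r 0.70. Without piglets 231 and 211 rho was 0.31 (permutation p = 0.0902) and r 0.47 (permutation p = 0.00789). AQP1 counts per 1000 TTR counts were 6.23 in piglet 231 (5.29 to 7.30), 7.82 in piglet 211 (5.72 to 10.4), 11.3 in piglet 228 (8.05 to 15.5) and 10.9 in piglet 200 (7.28 to 15.7). Without piglet 231 AQP1 fell under the filter on low counts, and with no filter its slope was 0.37 (edgeR adjusted p = 0.143).

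KCNJ13 (ENSSSCG00000025038; chromosome 15, 133239843 to 133249630) encodes Kir7.1, an inward-rectifier potassium channel of the plexus. Its level was 2.63 CPM at the lowest, 5.38 CPM at the median and 44.7 CPM in piglet 231, and the next was 12.6 CPM in piglet 216, which had 34.5 CPM of TTR. The slope was 0.27 (SE 0.038, edgeR adjusted p = 6.03e-05) and rho 0.57 (permutation p = 0.00065), with r 0.76. Without piglets 231 and 211 rho was 0.48 (permutation p = 0.00625) and r 0.58 (permutation p = 0.00056), and without piglet 231 the slope was 0.17 (edgeR adjusted p = 0.158). In piglet 212, where TTR was lowest, KCNJ13 was at 2.88 CPM (57 counts). KCNJ13 was also lower in libraries with a larger share of read pairs without a gene (rho −0.40, permutation p = 0.0231; r −0.40, permutation p = 0.0262), and the part of this in its slope was not tested.

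PRLR (ENSSSCG00000016830; chromosome 16, 20637568 to 20655881), the prolactin receptor, is made by plexus epithelium among many other cells. Its level was 0.106 CPM at the lowest, 0.444 CPM at the median and 6.51 CPM (106 counts) in piglet 231, and 1.52 CPM in piglet 211. All other piglets were below 1 CPM. The slope was 0.36 (SE 0.061, edgeR adjusted p = 0.00206), and rho was 0.45 (permutation p = 0.00855) with r 0.66. Without piglets 231 and 211 rho was 0.34 (permutation p = 0.0626) and r 0.36 (permutation p = 0.0477), and without piglet 231 the slope was 0.20 (edgeR adjusted p = 0.690).

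OTX2 (chromosome 1, 186028575 to 186039026), ENPP2 (chromosome 4, 19319815 to 19433492) and SLC4A5 (chromosome 3, 68733379 to 68819293) did not pass the test with TTR. Their slopes were 0.07 (SE 0.061), 0.06 (SE 0.037) and 0.01 (SE 0.090), with edgeR adjusted p-values of 0.837, 0.815 and 0.983. Their rho with TTR was 0.17, 0.12 and 0.01. In piglet 231, where TTR was 94.4 times the median of the other 32 piglets, CLIC6 was 89.7 times its own median, AQP1 30.3 times, PRLR 15.1 times, KCNJ13 8.36 times, SLC4A5 2.80 times, ENPP2 2.14 times and OTX2 1.01 times.

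**Figure D2:**
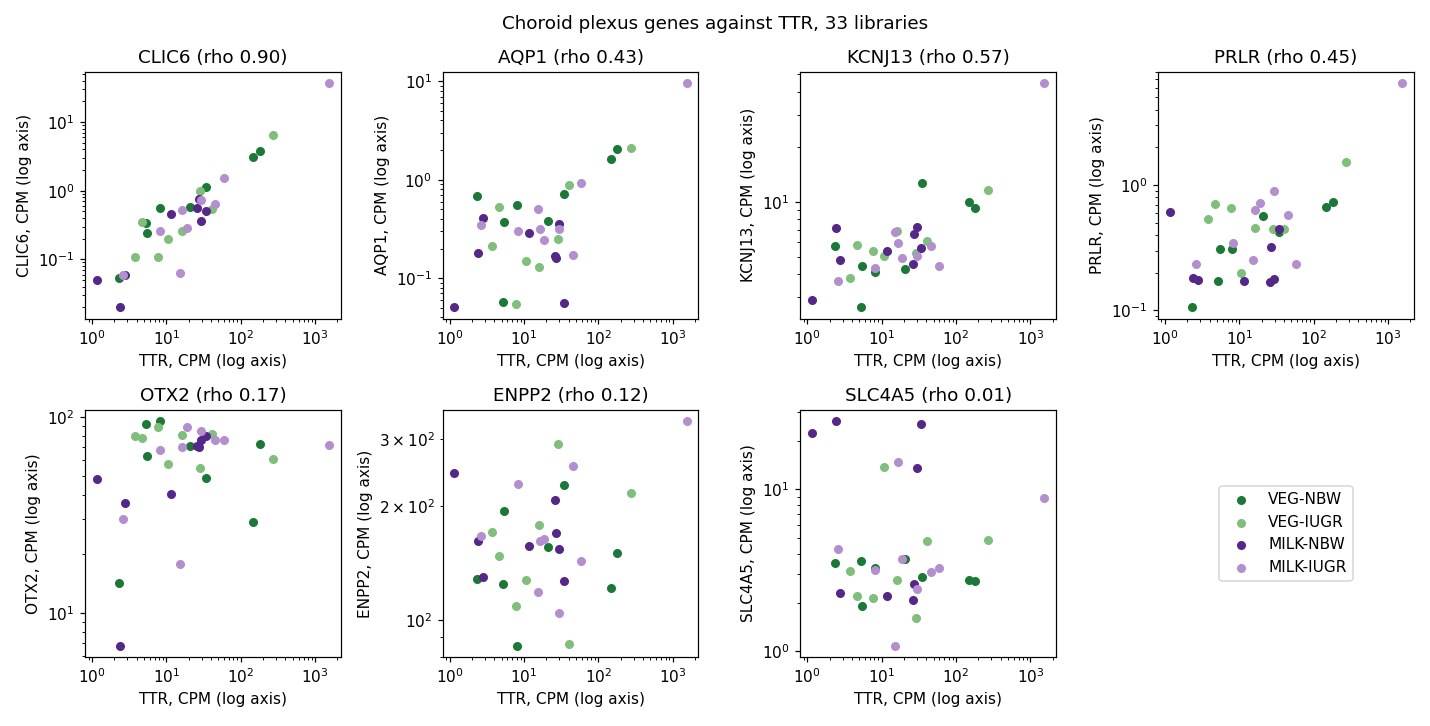
Level of each of the 7 other measured genes against TTR in the 33 piglets, in CPM on log axes, coloured by group, with Spearman's rho. CLIC6 rises along the whole range of TTR (rho 0.90), AQP1, KCNJ13 and PRLR are highest in piglet 231 at the right end, and OTX2, ENPP2 and SLC4A5 have a rho of 0.17, 0.12 and 0.01. A value of 0 is drawn at 0.02.

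Outside the members, 6 genes rose with TTR. HTR2C and CALML4 belong to a list of 35 other genes of plexus epithelium, of which 28 were tested. HTR2C, the serotonin 2C receptor, had a slope of 0.52 (SE 0.054, edgeR adjusted p = 2.72e-07), and it had 17.3 CPM in piglet 231 against 0.242 to 3.27 CPM in the other 32. CALML4, a calmodulin-like protein, had a slope of 0.21 (SE 0.040, edgeR adjusted p = 0.0108). The median slope of the 28 was 0.044, against 0.00015 over all genes tested, and 22 of the 28 slopes were above 0, against 7726 of the 15355 of all genes. The lists were chosen with earlier results of these data known, so this comparison is a description only. Mostly positive slopes were also found in other lists, in 9 of 9 mural cell, 8 of 8 oligodendrocyte, 7 of 9 microglia and 4 of 4 red blood cell genes. Fewer were above 0 in others, with 1 of 10 granule neuron, 2 of 9 Purkinje cell, 2 of 5 hepatocyte and 6 of 14 meningeal genes. The other 4 of the 6 genes that rose with TTR were MFRP (slope 0.25), CA3, a carbonic anhydrase (0.33), MALRD1 (0.37) and ENSSSCG00000009347 (0.38). Their edgeR adjusted p-values were 9.90e-07, 1.88e-05, 0.0388 and 9.90e-07. MALRD1 was called in 13 of the 33 fits that left out 1 library each and was not tested in 2, whereas MFRP, CA3, HTR2C and ENSSSCG00000009347 were called in all 33. Without piglet 231, 5 genes were called (0.0326%), CLIC6, HTR2C (slope 0.36, adjusted p = 0.00124), MFRP (0.19, adjusted p = 0.00124), CA3 (0.25, adjusted p = 0.0494) and ENSSSCG00000009347 (0.27, adjusted p = 0.00655).

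Of the other choroid plexus genes past the filter on low counts, the highest rho after HTR2C (0.62) and CALML4 (0.61) was found for SOSTDC1 (0.42), LMX1A (0.37), COL8A2 (0.36) and ACE (0.33), none of which passed (edgeR adjusted p = 0.241, 0.793, 0.206 and 0.793). CLDN1 (rho 0.69) and CLDN2 (rho 0.52), claudins of tight junctions, were under the filter on low counts and were not tested. CLDN2 had 7.38 CPM in piglet 231, at most 1.11 CPM in the other 32, and 0 counts in 8 of them. CLDN1 had 5.84 CPM in piglet 231, at most 1.24 CPM in the other 32, and 0 counts in 16 of them.

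**Figure D3:**
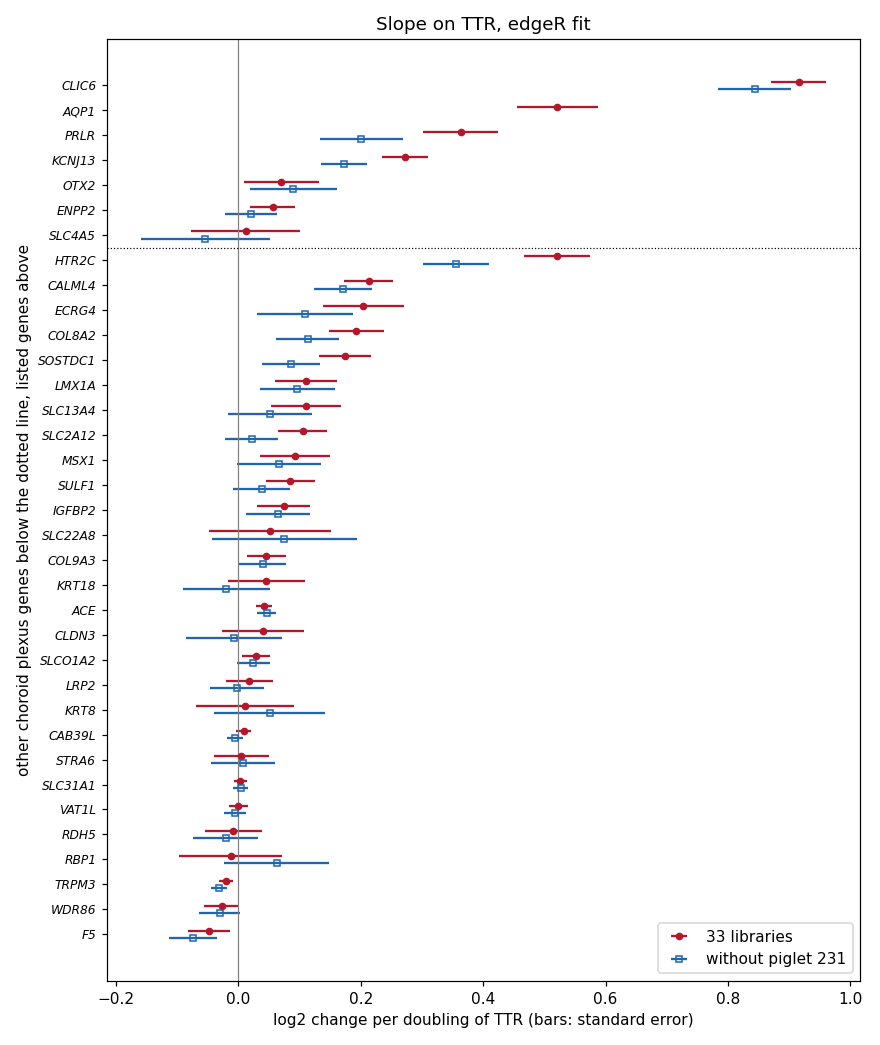
Slope on TTR, in log2 change per doubling of TTR with its standard error, for the 7 other measured members (above the dotted line) and the 28 tested genes of the list of other choroid plexus genes (below it), over 33 libraries (filled circles) and without piglet 231 (open squares). CLIC6 is at 0.92 and 0.84 and HTR2C at 0.52 and 0.36, and AQP1 has no second value because it fell under the filter.

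Of the lists for other functions and cell types, none had a gene called with TTR. This held for ion transport and pH (15 tested), thyroid hormone and retinol carriage (10), ependymal and ciliated cells (9), meningeal fibroblasts (14), endothelium (10), mural cells (9), granule neurons (10), Purkinje cells (9), astrocytes and Bergmann glia (9), oligodendrocytes (8), microglia (9), red blood cells (4), hepatocytes (5) and pineal and photoreceptor cells (2). Their median slopes lay between −0.019 (Purkinje cells) and 0.24 (red blood cells). The gene nearest to a call was CA2, a carbonic anhydrase (slope 0.12, SE 0.026, edgeR adjusted p = 0.0761). RBP4, whose protein binds TTR, had a slope of 0.05 (SE 0.030, adjusted p = 0.814). The ependymal genes summed to 79.1 CPM in piglet 231 and to 51.8 to 83.0 CPM over the 33 piglets, and TMEM212 was at 0 in all 33. Of the ependymal genes, FOXJ1 was highest in piglet 231 (14.1 CPM, against a median of 4.55 CPM; slope 0.09, unadjusted p = 0.0399, edgeR adjusted p = 0.794), and SPAG6, under the filter, was also highest there (3.20 CPM, against a median of 0.0555 CPM; rho 0.43). DNAH9 went the other way (rho −0.30, slope −0.023, edgeR adjusted p = 0.816). Of the 9 ependymal genes tested 5 had a slope above 0, and the median slope was 0.0043. The part of the ependymal genes in the results with TTR was not tested. The meningeal genes summed to 898 CPM in piglet 231, within the 501 to 1562 CPM of the 33.

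What each member shares with the rest of the transcriptome was tested by putting it in the place of TTR. The members split by their partners. CLIC6 called 15 genes (0.0977%), AQP1 24 (0.156%), PRLR 13 (0.0847%) and KCNJ13 48 (0.313%), each of them including the other 3 and TTR. Without piglet 231 the counts were 2 for CLIC6, 8 higher and 4 lower for AQP1, 0 for PRLR and 195 higher and 110 lower for KCNJ13. OTX2 called 273 genes (1.78%), ENPP2 1438 (9.37%) and SLC4A5 0, where 262 genes had an unadjusted p-value under 0.05 with SLC4A5.

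KCNJ13 was followed most closely by WFIKKN2 (rho 0.72), SLC13A4 (0.72), SLC5A5, the iodide transporter (0.71), ECRG4 (0.71) and IGFBP2 (0.70), all called higher, and 8 of the 28 other choroid plexus genes rose with it. SLC13A4, a sulfate transporter, had a slope of 0.80 on KCNJ13 (SE 0.13, edgeR adjusted p = 0.000544), and ECRG4 a slope of 1.11 (SE 0.14, adjusted p = 8.19e-06). With all 33 libraries 0 of 14 meningeal fibroblast genes were called with KCNJ13. Without piglet 231, 195 of 15338 genes rose with KCNJ13. Among them were TTR, CLIC6, CA2, TAGLN, APOA1 and 7 of the 28 other choroid plexus genes. Of the 14 meningeal genes 3 were called in that fit, CRABP2 (slope 1.12, edgeR adjusted p = 0.0395), SLC22A6 (0.58, adjusted p = 0.0104) and SLC6A13 (0.69, adjusted p = 0.0242).

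OTX2 (ENSSSCG00000005063) encodes a homeobox transcription factor of plexus epithelium that granule neurons of part of the cerebellum also make. Its level was 6.79 CPM in piglet 234, 71.2 CPM at the median and 94.8 CPM in piglet 205, and in piglet 231 it was 71.7 CPM. Of its 273 genes, 126 rose with it and 147 fell. The closest were the transcription factors EBF1 (rho 0.91, slope 0.38) and MEIS1 (rho 0.86, slope 0.20), with NTF3, a neurotrophin (rho 0.84), and NR2F1 (rho 0.79), all with an edgeR adjusted p-value of at most 0.000768. MEIS2 fell by 1.15 on the log2 scale per doubling of OTX2 (SE 0.12, edgeR adjusted p = 2.81e-07). Of 9 Purkinje cell genes 4 fell with OTX2, SKOR2, CALB1, CA8 and PCP2, and of the 28 other choroid plexus genes LMX1A alone rose. Without piglet 231 the count was 121 higher and 143 lower.

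ENPP2 (ENSSSCG00000006001) encodes autotaxin, a secreted enzyme that makes lysophosphatidic acid and is produced by plexus epithelium and by myelinating oligodendrocytes. Its level was 85.5 CPM in piglet 205, 156 CPM at the median and 334 CPM in piglet 231, with 291 CPM in piglet 227. Of its 1438 genes 1099 rose and 339 fell. Among its closest partners were UGT8 (rho 0.95, slope 1.03, edgeR adjusted p = 7.51e-14), CERS2 (rho 0.95), CLDN11 (rho 0.95) and MBP (rho 0.94), genes of myelin and its lipids. All 8 oligodendrocyte genes tested and 7 of 9 microglia genes rose with ENPP2, and 4 of 10 granule neuron genes fell (ZIC2, ZIC1, NEUROD1 and ETV1). With ENPP2 also rose 6 of the 28 other choroid plexus genes (SLCO1A2, SLC2A12, SULF1, SOSTDC1, COL8A2 and COL9A3), 7 of 15 ion transport and pH genes and 3 of 9 astrocyte genes. Of the members, CLIC6, KCNJ13 and PRLR rose with ENPP2 (edgeR adjusted p = 0.0164, 0.0356 and 0.0223), and TTR had a slope of 1.94 (SE 0.72, adjusted p = 0.0857). Without piglet 231 these 3 calls were lost, with slopes of 0.92 for CLIC6, 0.22 for KCNJ13 and 0.35 for PRLR (edgeR adjusted p = 0.417, 0.544 and 0.533), and 4 of the 28 other choroid plexus genes were called.

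SLC4A5 (ENSSSCG00000027320) encodes NBCe2, a sodium bicarbonate cotransporter of the plexus. Its level was 1.08 CPM in piglet 233, 3.17 CPM at the median and 26.3 CPM in piglet 234. The 6 highest values were 13.6 to 26.3 CPM, of which 4 were MILK-NBW (212, 218, 230 and 234), 1 was MILK-IUGR (214) and 1 was VEG-IUGR (203), and piglet 231 came next at 8.79 CPM. In all other piglets it was at most 4.88 CPM. TTR in these 6 piglets was 1.16 to 34.3 CPM.

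**Figure D4:**
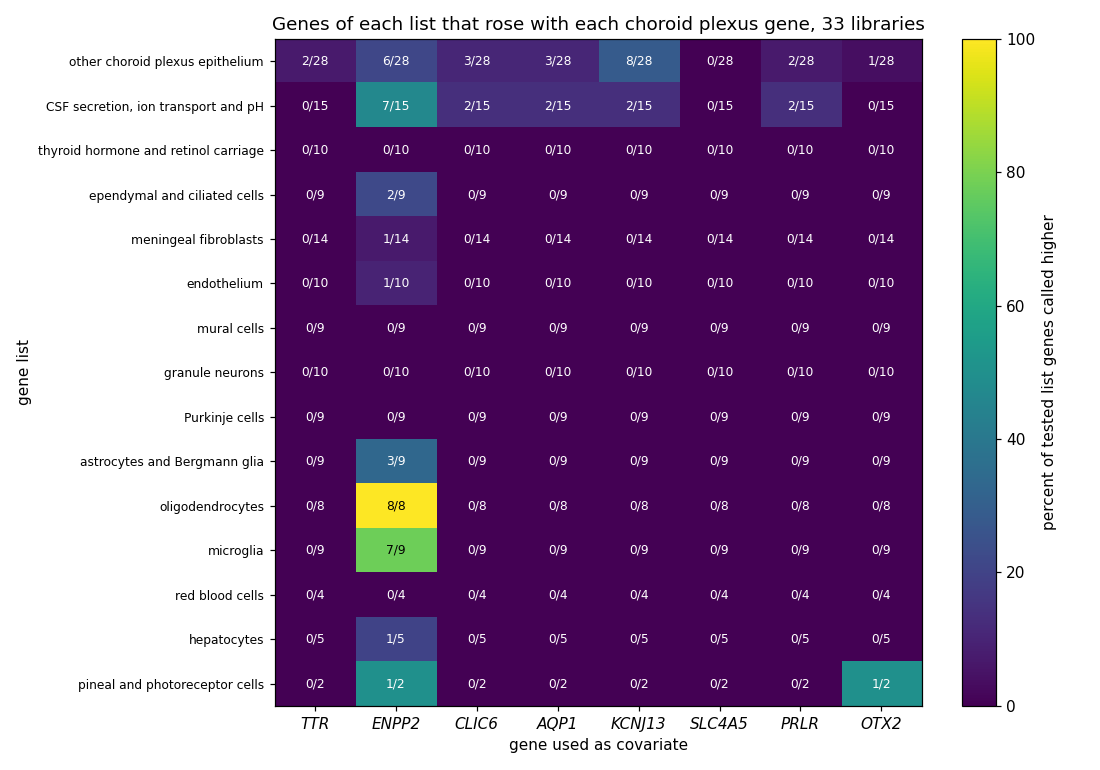
Genes that rose (edgeR adjusted p under 0.05) with each of the 8 measured members, by gene list, over 33 libraries. Each cell gives the number called over the number tested and is coloured by the percent called. The oligodendrocyte list was called whole with ENPP2 (8 of 8), and of the lists drawn, which leave out the members themselves, TTR had calls in the other choroid plexus genes (2 of 28) and in no other.

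The groups were compared to find whether diet or birth weight shifts these genes. No member passed an adjusted p-value of 0.05 in any of these comparisons, and edgeR called 0% of the 15356 genes for diet, birth weight, their interaction and the 4 contrasts between groups. At an unadjusted p-value under 0.05 the share of all genes was 4.26% for diet, 2.19% for birth weight, 6.09% for the interaction, 6.67% for MILK-NBW against VEG-NBW, 3.9% for MILK-IUGR against VEG-IUGR, 2.29% for VEG-IUGR against VEG-NBW and 6.24% for MILK-IUGR against MILK-NBW.

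TTR, CLIC6 and AQP1 had differences of the same sign in each contrast, and MILK-NBW enters 2 of the contrasts, so these are not independent. CLIC6 had 0.0529, 0.561 and 3.84 CPM as lowest, median and highest values in VEG-NBW, 0.107, 0.306 and 6.49 CPM in VEG-IUGR, 0, 0.411 and 0.754 CPM in MILK-NBW and 0.0582, 0.525 and 36.8 CPM in MILK-IUGR, so all 4 groups overlapped. In MILK-IUGR against MILK-NBW the log2 fold change was 3.23 for TTR (SE 1.10, unadjusted p = 0.00602), 3.54 for CLIC6 (SE 1.07) and 2.66 for AQP1 (SE 0.81), with an edgeR adjusted p of 0.771 for all. Without piglet 231 the value was 0.58 for TTR (SE 0.96) and 0.61 for CLIC6 (SE 0.92), and for AQP1, with no filter on low counts, 0.89. In MILK-NBW against VEG-NBW the log2 fold change was −2.60 for TTR (SE 1.17), −2.61 for CLIC6 (SE 1.19) and −2.24 for AQP1 (SE 0.87), with edgeR adjusted p-values of 0.735, 0.735 and 0.721. The median of TTR went the other way, at 18.9 CPM in MILK-NBW and 14.4 CPM in VEG-NBW. VEG-NBW held piglets 228 and 200, with 181 and 147 CPM of TTR, and the highest MILK-NBW value was 34.3 CPM. The part of these 2 piglets in the fold change was not tested. The medians of CLIC6 and AQP1 were lower in MILK-NBW. The interaction of diet and birth weight was 4.54 for TTR (SE 1.54, edgeR adjusted p = 0.784), and 0.68 (SE 1.54) without piglet 231. An exact permutation test of the mean log2 CPM, two-sided and unadjusted, gave p = 0.175 for TTR in MILK-IUGR against MILK-NBW and p = 0.407 in MILK-NBW against VEG-NBW. The contrast of MILK-IUGR with VEG-IUGR turned from 1.94 (SE 1.01) to −0.95 (SE 0.99) for TTR without piglet 231. For diet over both weights TTR had −0.00 (SE 0.94) and CLIC6 0.17 (SE 0.84), and without piglet 231 these were −1.29 (unadjusted p = 0.0385) and −1.50 (unadjusted p = 0.0113), both with an edgeR adjusted p of 0.9998. The permutation test for diet without piglet 231 gave an unadjusted p of 0.513 for TTR and 0.147 for CLIC6. Its differences in mean log2 CPM were −0.44 and −0.72.

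The permutation tests covered 8 members in 6 comparisons (48 tests), of which 4 gave an unadjusted p under 0.05, for AQP1 and PRLR. Some tests pass this threshold by chance, and the 48 share piglets and genes, so the count is only a description. The permutation test was run on the members only, so no share over all genes stands beside that count. By edgeR, SLC4A5 had an unadjusted p under 0.05 for diet and PRLR for birth weight. TTR, CLIC6, AQP1 and SLC4A5 had it in MILK-NBW against VEG-NBW. In MILK-IUGR against MILK-NBW the same genes had it, with KCNJ13 and PRLR. No member had it in the other comparisons. The edgeR share over all genes in the 6 comparisons was 2.19 to 6.67%. These members share piglets and follow one another in part. For AQP1 the lowest, median and highest values were 0.0572, 0.620 and 2.05 CPM in VEG-NBW and 0.0506, 0.175 and 0.408 CPM in MILK-NBW, so the ranges overlapped. The exact permutation test gave an unadjusted p of 0.0176 for this difference and 0.0255 for MILK-IUGR against MILK-NBW (0.0379 without piglet 231). The AQP1 levels rest on 1 to 39 counts in each NBW library.

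SLC4A5 had the opposite sign to TTR in both of these contrasts. Its lowest, median and highest values were 1.91, 3.06 and 3.71 CPM in VEG-NBW and 2.09, 8.08 and 26.3 CPM in MILK-NBW, where 4 of 8 piglets were above all VEG-NBW piglets and 4 lay among them. The log2 fold change was 2.03 (SE 0.55, unadjusted p = 0.000702, edgeR adjusted p = 0.711), and the exact permutation test gave an unadjusted p of 0.0758. In MILK-IUGR against MILK-NBW it was −1.34 (SE 0.51, adjusted p = 0.771), the interaction was −1.88 (SE 0.75, adjusted p = 0.784), and diet over both weights gave 1.05 (SE 0.41, adjusted p = 0.985).

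For birth weight, PRLR had a log2 fold change of 1.25 (SE 0.42, unadjusted p = 0.00536, edgeR adjusted p = 0.9996), with 0.200, 0.537 and 6.51 CPM in 17 IUGR piglets and 0.106, 0.307 and 0.736 CPM in 16 NBW piglets as lowest, median and highest values. The permutation test gave an unadjusted p of 0.0123, and without piglet 231 the value was 0.69 (SE 0.28) with a permutation p of 0.0236. In MILK-IUGR against MILK-NBW PRLR had 1.95 (SE 0.57, edgeR adjusted p = 0.771), and 0.76 (SE 0.42) without piglet 231. The exact permutation test of this contrast gave an unadjusted p of 0.0383, and 0.0637 without piglet 231. KCNJ13, with 2.88, 5.49 and 7.23 CPM in MILK-NBW and 3.67, 5.04 and 44.7 CPM in MILK-IUGR, had 0.80 (SE 0.38) in that contrast and −0.03 (SE 0.26) without piglet 231. For sex, where 0.163% of genes were called and 2.94% had an unadjusted p-value under 0.05, the log2 fold change of males over females was 1.79 for CLIC6 (SE 0.79, edgeR adjusted p = 0.9997) and 0.64 for KCNJ13 (SE 0.27, adjusted p = 0.9997), and without piglet 231 the values were 0.11 and 0.21. OTX2 and ENPP2 had no unadjusted p-value under 0.05 in any of these comparisons, with log2 fold changes of −0.18 to 0.31 and −0.02 to 0.19, the interaction included.

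**Figure D5:**
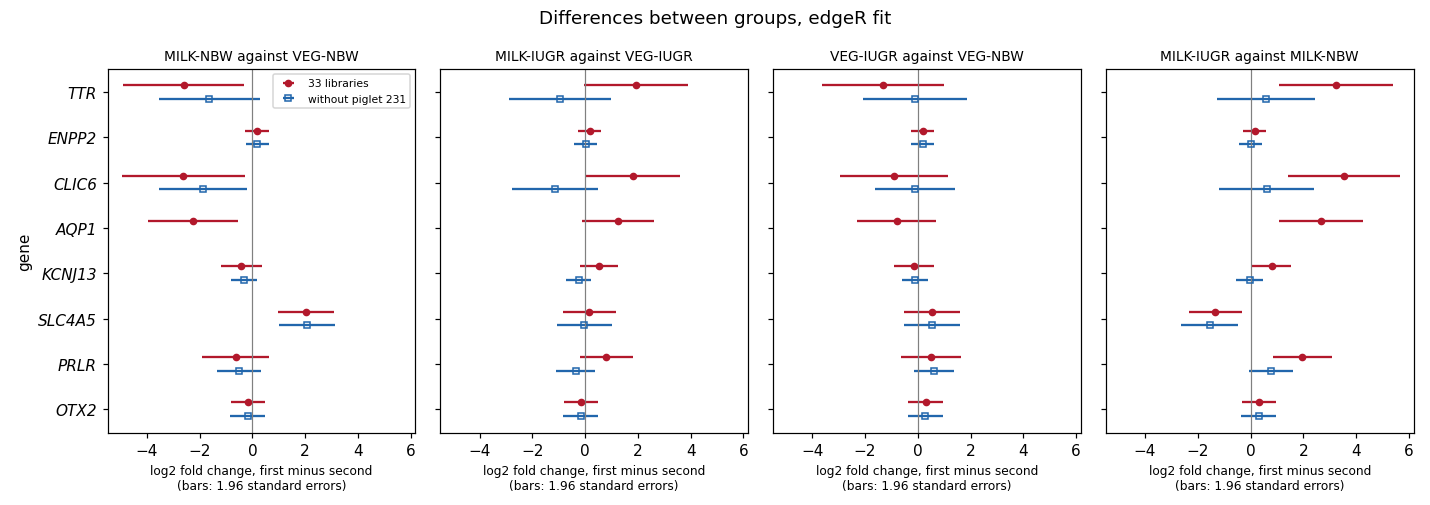
Log2 fold change of the 8 measured members in the 4 contrasts between groups, with bars for its 95% interval, over 33 libraries (filled circles) and without piglet 231 (open squares; AQP1 fell under the filter). In MILK-IUGR against MILK-NBW, TTR moves from 3.23 to 0.58 without piglet 231, whereas SLC4A5 moves from −1.34 to −1.55.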

How the data were processed

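Total RNA from piglet cerebellum (RNeasy Lipid Tissue Mini Kit) was sequenced as paired ends on an Illumina NovaSeq. According to the labels and processing notes, the authors used Trim Galore, HISAT2, HTSeq and DESeq2 with Sscrofa11.1, and they deposited raw read counts per gene for each piglet. Tool versions, the annotation and the strand setting are not given in the sources used here, so reads of overlapping or antisense genes cannot be told apart.

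The members and gene lists were chosen with earlier results of these data known. Identifiers were matched to symbols through RefSeq, whose coordinates are given, and rows that name no gene were left out of the totals. The 3 left-out libraries are 1 each of VEG-NBW, VEG-IUGR and MILK-NBW, matched by the share of read pairs without a gene. That match rests on the counts. Tests used edgeR 4.0.16 in R 4.3.3 (quasi-likelihood, TMM scaling, filterByExpr with a minimum count of 10) on the counts of 33 libraries, with the 4 groups and sex as terms and Benjamini-Hochberg adjustment over all genes tested, called under 0.05. TTR, or another member, entered as its log2 CPM with a prior count of 2. The standard error is the log2 value divided by the square root of F. Levels are plain CPM. Group means of log2 CPM were compared by two-sided permutation tests, over all splits for 2 groups of 8 or 9 and by 100000 draws for diet and birth weight. Correlations also used log2 CPM and 100000 draws. Intervals are exact 95% binomial intervals and cover counting error only. The model was tested on simulated data. Alternatives used DESeq2 1.42.0 and limma 3.58.1 (voom). Named genes were all members, the 8 genes of the choroid plexus list with the highest rho with TTR, the called genes with the highest and lowest rho, members of a contrast with an unadjusted p under 0.05 and, of each other list, 2 genes with the largest rho. The choice of genes shown for the fits with other members, and the fits without piglet 231 or without each library in turn, were made after seeing the data.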

Additional observations from a re-analysis of the deposited data

Results flagged for a closer look

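Within each group, the highest and lowest piglet of each of the 8 measured genes was tested by Dixon's ratio of gap to range (critical value 0.526 for 8 piglets and 0.493 for 9), and 11 of the 32 sets of values had a piglet past it. Chance flags about 1 in 20 sets of normal values, but CPM are skewed. TTR was chosen for its spread, and CLIC6, AQP1, KCNJ13 and PRLR rose with it, whereas OTX2, ENPP2 and SLC4A5 did not pass that test. The ratios are therefore a description, and the chance rate does not apply to them. On the log2 CPM scale, added after seeing the data, 5 of the 11 were past the critical value, all of them piglet 231, and piglet 211 had 0.449 for TTR and 0.307 for AQP1. In MILK-IUGR, piglet 231 stood apart for TTR (1538 CPM), CLIC6 (36.8 CPM), AQP1 (9.59 CPM), KCNJ13 (44.7 CPM) and PRLR (6.51 CPM). In VEG-IUGR, piglet 211 stood apart for the same 5 genes, with 271 CPM of TTR, 6.49 CPM of CLIC6, 2.12 CPM of AQP1, 11.7 CPM of KCNJ13 and 1.52 CPM of PRLR. In VEG-IUGR, piglet 203 stood apart for SLC4A5 alone (13.7 CPM, against 1.60 to 4.88 CPM in the other 7).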

How the results depend on the processing

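The 10 genes called with TTR in 33 libraries became 5 with all 36 libraries, where KCNJ13 had an edgeR adjusted p of 0.114. With 35 libraries, piglet 210 alone left out, 9 were called. Piglet 210 had 64.3% of read pairs without a gene and 0 counts of KCNJ13. With no filter on low counts 28 were called, and with at least 10 counts in every library 3 of 13467 (CLIC6, AQP1 and PRLR were then not tested). The number was 4 with the rank of TTR, 1 (CLIC6) without piglets 231 and 211, 1 in females and 7 in males. It was 5 without piglet 231, a fit added after seeing the data. Leaving out each library in turn gave 5 to 11, and 8 to 11 where piglet 231 stayed in. CLIC6 was called in all 33 of these fits. KCNJ13 and PRLR were called in 32, all but the fit without piglet 231 (edgeR adjusted p = 0.158 and 0.690). AQP1 was called in the 31 fits that tested it, and all 31 kept piglet 231. It fell under the filter without piglet 231 and without piglet 232, so these fits cannot show whether its call holds without piglet 231. By rank correlation 4 of 7 members had a permutation p under 0.05, 2 had without piglets 231 and 211 and in females, and 4 had in males. Without piglet 231 alone, added after seeing the data, rho with TTR was 0.89 for CLIC6 (permutation p = 1e-05) and 0.53 for KCNJ13 (permutation p = 0.00203). It was 0.40 for PRLR (permutation p = 0.0232) and 0.37 for AQP1 (permutation p = 0.0362). For OTX2, ENPP2 and SLC4A5 the permutation p was then 0.303, 0.863 and 0.826. The permutation p was not computed for other genes, so no share over all genes stands beside these counts. Among 15355 genes the rank by rho with TTR was 1 for CLIC6, 9 for KCNJ13, 81 for PRLR and 140 for AQP1. Against 0 genes called between groups, MILK-NBW against VEG-NBW gave 2 with DESeq2 and 1 with limma voom, and MILK-IUGR against MILK-NBW gave 1 each with DESeq2 size factors, DESeq2, limma voom, no sex term and at least 10 counts in every library. The 25 genes called for sex became 7 with at least 10 counts in every library. The causes were not tested. For single named genes, no member was called for groups or sex with 33 libraries, nor in the 656 values from other settings. A change of sign was not counted there, so the 656 do not show that the values were stable. For tracking TTR, 158 values kept their side of the threshold, and 37 calls were lost. No paired analysis was possible because the labels give the groups no shared replicate numbers or litters. AQP1, CLIC6 and PRLR had few counts in most piglets, which limits their ratios to TTR there.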

Other observations

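AQP1 and PRLR had partners beyond the choroid plexus genes. The genes with the highest rho with AQP1 among those called were EMB (rho 0.52, slope 0.25, edgeR adjusted p = 0.00243) and SLC16A6 (rho 0.51, slope 0.19, adjusted p = 0.0377). TP73, a transcription factor with a role in multiciliated cells, also rose with AQP1 (rho 0.44, slope 0.51, adjusted p = 0.0287). With PRLR, PMP2, a myelin lipid-binding protein (rho 0.45, slope 0.60, edgeR adjusted p = 0.0473), and SOSTDC1 (rho 0.44, slope 0.44, adjusted p = 0.0473) rose. Without piglet 231, no gene was called with PRLR, where 1394 genes had an unadjusted p under 0.05. SLCO1C1, a thyroxine transporter in the list for thyroid hormone and retinol carriage, was under the filter on low counts and was not tested. It had a rho of 0.52 with TTR and 5.16 CPM in piglet 231.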
